A study of Mus musculus with 56 samples.

Results

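The genes of polyamine turnover in mouse calf muscle are described here, with Smox in the lead. Of the 10 genes chosen by name (Smox, Sat1, Paox, Odc1, Amd1, Srm, Sms, Azin1, Oaz1 and Oaz2), 7 had a probe set of their own on the array, 14 probe sets in all, out of 18193 genes with such a probe set. Smox was put first because it was lower in mice after 24 weeks of smoke than in their sham controls, so its levels in any comparison with either of those groups are given as a description with no test. The other members were chosen as its pathway. Paox and Amd1 were not analysed here, since no probe set in the table used here was annotated to them. All 3 probe sets of Sms were shared with the pseudogene Sms-ps, so Sms has none of its own and no value is given for it. A further probe set of Oaz1 was shared with Oaz1-ps and was left out. Of the 14 probe sets, 13 passed the filter on dim probe sets, and the exception was the dimmest of the 3 for Azin1.

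The muscle was the gastrocnemius of the calf, taken from 55 female C57BL/6 mice in 9 groups, and cDNA amplified from its RNA was hybridised to 56 arrays. Exposed mice breathed 4% mainstream cigarette smoke through the nose for 2 hours a day on 5 days a week, and sham mice breathed air in the same way. Sham air and smoke were each given for 2, 12 or 24 weeks. Beside these stood mice left untreated at week 0 and a pair of cessation groups with 12 weeks of smoke, then 12 weeks without it. The cessation groups are labelled FA and RA, and the labels of the sham air groups carry FA too. Neither abbreviation is defined in the sources used here, and the ages of the mice are not given. Each group had 6 mice, apart from smoke at 12 weeks with 7, of which mouse G8 was measured on 2 arrays that were averaged. A level is the log2 of the deposited intensity plus 16. The error of a level is the SD over mice, and errors of differences are SEs from 1 limma model of 12347 genes. Such an SE, and limma's p with it, pools the spread of all 9 groups. Both are too small where a compared group varies more than the others. A difference passed where its p, adjusted by Benjamini-Hochberg over all genes tested, was under 0.05. Levels are compared between mice within a probe set only. Where all mice of 1 group lay above or below those of another, the share of all genes that did the same was not counted. Such a lack of overlap is by itself only a description of those mice.

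Polyamines (putrescine, spermidine and spermine) are small positively charged molecules that bind nucleic acids and are needed for growth and translation. Ornithine decarboxylase (Odc1) makes putrescine, and spermidine synthase (Srm) and spermine synthase (Sms) extend it, using aminopropyl groups that depend on S-adenosylmethionine decarboxylase (Amd1). Spermine oxidase (Smox) turns spermine back into spermidine and releases hydrogen peroxide, while spermidine/spermine N1-acetyltransferase (Sat1) acetylates both for export or for oxidation by Paox. Antizymes (Oaz1, Oaz2) direct ornithine decarboxylase to the proteasome and limit uptake, and antizyme inhibitor (Azin1) holds antizymes back. Smox is known to be abundant in skeletal muscle and to fall when muscle atrophies.

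Promoter sequence is shown for Smox, for the other breakdown enzyme Sat1 and for the rate-limiting synthetic enzyme Odc1, so that the start regions behind the levels below can be read side by side. The 250 bases before the RefSeq start of each gene in GRCm38.p6 are written 5′ to 3′ on the gene's strand, at chr2:131491612-131491861 (plus strand) for Smox, chrX:155216450-155216699 (minus strand) for Sat1 and chr12:17544623-17544872 (plus strand) for Odc1. Capitals mark GC boxes (GGGCGG, or CCGCCC for a box on the opposite strand) and the core of the dioxin response element (GCGTG, or CACGC on the opposite strand).
Smox: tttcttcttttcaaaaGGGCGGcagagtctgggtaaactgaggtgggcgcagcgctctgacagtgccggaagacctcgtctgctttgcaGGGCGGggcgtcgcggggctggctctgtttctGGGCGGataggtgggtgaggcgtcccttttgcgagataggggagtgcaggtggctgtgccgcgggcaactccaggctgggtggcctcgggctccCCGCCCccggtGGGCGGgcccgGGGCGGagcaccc
Sat1: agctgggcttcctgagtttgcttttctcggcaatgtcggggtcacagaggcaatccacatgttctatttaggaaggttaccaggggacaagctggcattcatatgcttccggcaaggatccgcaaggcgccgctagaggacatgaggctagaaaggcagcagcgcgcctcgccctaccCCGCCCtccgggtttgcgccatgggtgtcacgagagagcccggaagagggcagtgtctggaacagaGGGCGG
Odc1: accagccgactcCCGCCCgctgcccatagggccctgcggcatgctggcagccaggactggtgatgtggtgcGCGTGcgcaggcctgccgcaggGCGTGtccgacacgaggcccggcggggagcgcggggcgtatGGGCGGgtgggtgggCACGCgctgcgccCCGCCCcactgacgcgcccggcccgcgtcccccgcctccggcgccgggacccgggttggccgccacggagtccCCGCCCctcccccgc
The Smox promoter held 6 GC boxes, the farthest 234 and the nearest 13 bases before the start. At least 1 GC box was found in 32.7% of the 32851 mouse promoters of the same length, and 6 or more in 0.886%. Sat1 had 2 and Odc1 had 4. Odc1 also had 3 dioxin response element cores, a motif present in 28.2% of all promoters and absent from the Smox and Sat1 windows. None of the 3 windows held an E-box (CACGTG, in 6.02% of promoters), a cyclic AMP response element (TGACGTCA, 1.55%), a CCAAT box (CCAAT, 33.8%) or a TATA box (TATAAA, 12.4%). Both strands were searched and no printed matches overlap. GC content was 68.0% for Smox, 59.6% for Sat1 and 80% for Odc1, against a median of 52.4% over all promoters. A match describes letters and is no evidence of binding, and 8 of the 10 genes had an entry in the promoter table.

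Lymph node genes set 12 of the 56 arrays apart. Glycam1, a gene of lymph node vessels, had an intensity of 6944 or more in these 12 arrays, the lowest value above the limit of 2000, and of 307 or less in the other 44. They were 1 untreated mouse, 1 sham mouse at 2 weeks, 1 sham mouse at 24 weeks, 2 arrays of smoke at 12 weeks including 1 of the pair from G8, 3 mice of smoke at 24 weeks, 1 of cessation FA and 3 of cessation RA. The summed intensity of the 12 measured lymphocyte markers of 14 listed ran from 4069 to 36086 in them and from 182 to 1177 in the others. All 12 muscle markers were present in every array, with a mean log2 level of 13.36 to 13.48 in the 12 arrays and of 13.41 to 13.55 in the others. The main results below are given for all 55 mice and for the 44 mice left without these arrays, in which G8 is represented by its other array and 12248 genes were tested. In whole muscle, fewer cells of a type and less RNA per cell cannot be told apart.

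By its brighter probe set, 1424268_at, Smox was highest in mice exposed to smoke or sham air for 2 weeks and lowest after 24 weeks of smoke. This probe set ran from 8.94 to 11.69 over the 55 mice with a median of 10.83. After 24 weeks of smoke the 6 mice had a lowest level of 8.94, a median of 10.15 and a highest of 10.47, and the sham mice at 24 weeks had 10.71, 10.95 and 11.22. All 6 smoke mice lay below the lowest sham mouse. Means were 9.93 ± 0.57 and 10.96 ± 0.19, a difference of -1.03 ± 0.18 on the log2 scale or 2.04-fold. This is the difference that led to the choice of Smox and carries no test. Its SE pools the spread of all groups and is too small here, since smoke at 24 weeks had the largest SD of any group. In this comparison 58 genes, or 0.47% of those tested, passed, which is the background for the other members only. That count moved by over 1.5 times when any mouse of these groups other than sham replicate 2 or smoke replicate 5 was left out, from 4 without smoke replicate 6 to 547 without smoke replicate 3. The 3 smoke mice without lymph node genes had 10.04, 10.29 and 10.47, all below the lowest of 5 sham mice at 10.71, and the difference was -0.68 ± 0.19. The 2 lowest mice of the group, at 8.94 and 9.59, both carried lymph node genes. Lymphocyte markers were higher in smoke at 24 weeks for 11 of 11 genes tested with a median difference of 1.62, and slow fibre markers were lower for 9 of 9 with a median of -0.47. None of these passed by limma, and 6 of the 9 slow fibre markers had an unadjusted p under 0.05, as had 24.7% of all genes. Over all genes tested the median was -0.03. The summed intensity of the slow fibre markers ran from 21268 to 62415 in smoke at 24 weeks and from 39979 to 62324 in sham air. Their part in the Smox difference was not tested.

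**Figure D1:**
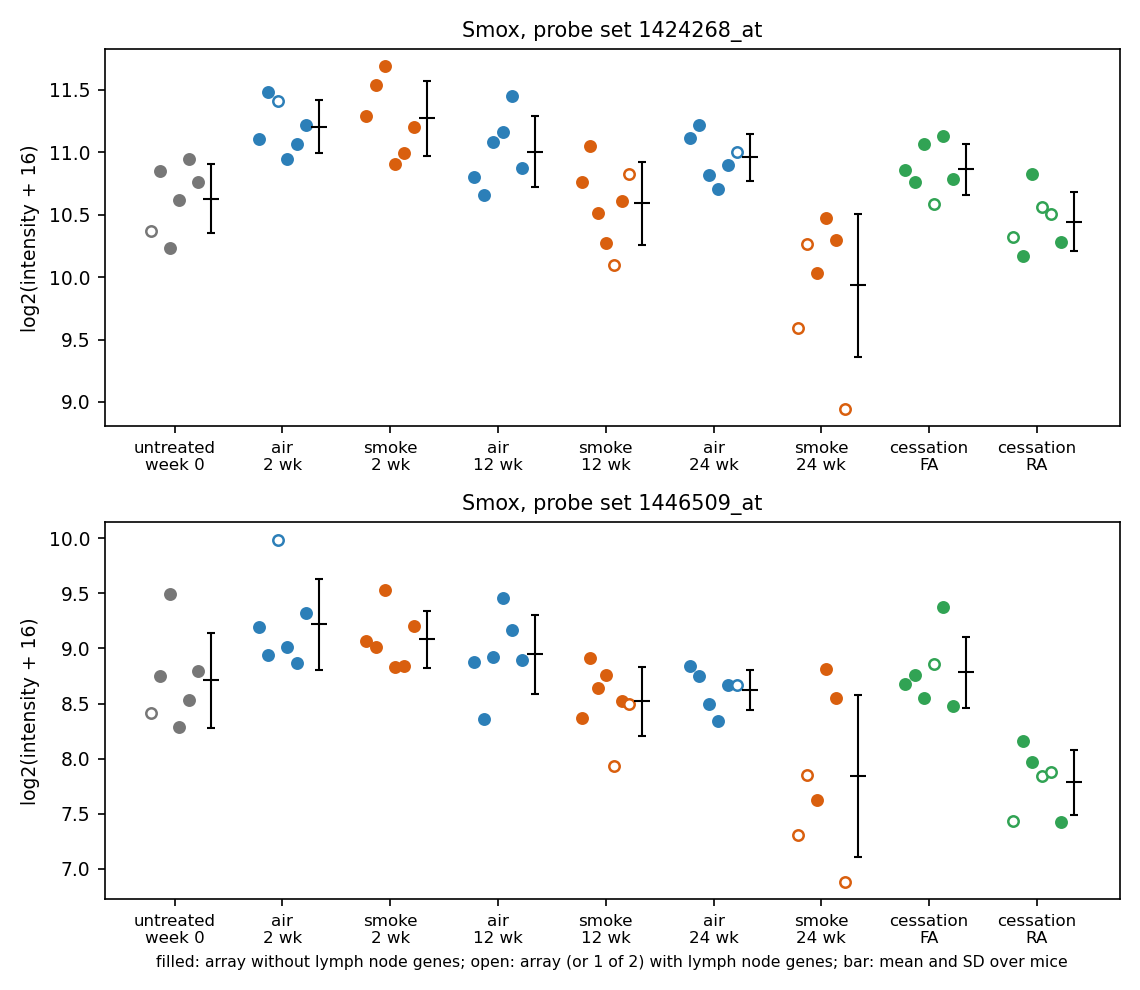
Log2 level (intensity plus 16) of both Smox probe sets in each of 55 mice by group, with mean and SD as black bars, and open symbols for mice with an array that carried lymph node genes. In the upper panel all 6 mice of smoke at 24 weeks, at 8.94 to 10.47, lie below the sham mice at 24 weeks, at 10.71 to 11.22, and in the lower panel all 6 mice of cessation RA lie below all 6 of cessation FA.

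The 9 group means of the brighter Smox probe set are given in order, and include the groups that Smox was chosen on. From the top they were 11.27 ± 0.30 for smoke at 2 weeks, 11.21 ± 0.21 for sham air at 2 weeks, 11.01 ± 0.28 for sham air at 12 weeks, 10.96 ± 0.19 for sham air at 24 weeks and 10.86 ± 0.20 for cessation FA. Below these came untreated mice at 10.63 ± 0.28, smoke at 12 weeks at 10.59 ± 0.33 (n = 7), cessation RA at 10.45 ± 0.24 and smoke at 24 weeks at 9.93 ± 0.57. No neighbouring pair in this order differed by more than the larger SD of the pair. The widest gap, 0.51, lay between cessation RA and smoke at 24 weeks, and the next widest was 0.23. The gap of 0.51 stayed under the larger SD only through the SD of smoke at 24 weeks, 0.57, against 0.24 in cessation RA. This rule therefore cannot tell a graded order from a break above smoke at 24 weeks.

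The dimmer Smox probe set, 1446509_at, also had the 2-week groups at the top and smoke at 24 weeks and cessation RA at the bottom. Its widest gap, 0.68 above smoke at 24 weeks, lay just under the SD of that group, 0.73. Here too no neighbouring pair differed by more than the larger SD. Its means ran from 9.22 ± 0.41 in sham air at 2 weeks through 8.63 ± 0.18 in sham air at 24 weeks to 7.84 ± 0.73 in smoke at 24 weeks and 7.79 ± 0.29 in cessation RA, which was lowest, also with the lymph node arrays left out (7.85 against 8.33). Smoke minus sham air at 24 weeks was -0.79 ± 0.22 in this probe set, with 4 of 6 smoke mice below the lowest sham mouse, and -0.29 ± 0.24 without the lymph node arrays, with 1 of 3 below. Both probe sets followed each other from mouse to mouse. Over the 43 mice with no lymph node array Pearson's r was 0.62 and Spearman's rho 0.68, and r was 0.52 without the 2 mice farthest from the median. Over all 55 mice r was 0.78 and rho 0.75. These values hold the group difference that Smox was chosen on and carry no test. For deviations from group means over all 55 mice r was 0.58 (permutation p = 3e-05, adjusted 6e-05), rho was 0.51 (permutation p = 0.00013, adjusted 0.00013 over these 2 tests) and r was 0.43 without the 2 farthest mice. These deviations keep the mice with lymph node arrays, and both probe sets read lower on such an array of mouse G8. Deviations without those mice were not computed, so the part of lymph node content in this r was not tested. The permutations also mixed groups of unlike SD, from 0.18 to 0.73 in the dimmer probe set.

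Smoke against sham air at the earlier times did not pass for Smox. At 12 weeks the smoke mice had a lowest level of 10.09, a median of 10.61 and a highest of 11.05, and the sham mice had 10.66, 10.98 and 11.45, so that 4 of 7 smoke mice lay below every sham mouse. The difference was -0.42 ± 0.17 (limma adjusted p = 1.0), and an exact two-sided permutation test gave p = 0.034, or 0.068 after adjustment over the 6 Smox comparisons that did not use the groups it was chosen on. With those arrays left out it was -0.29 ± 0.15 (limma adjusted p = 0.68, exact p = 0.13). At 2 weeks the levels of both groups overlapped over most of their range, and the difference was 0.07 ± 0.18 (limma adjusted p = 1.0, exact p = 0.67), or 0.11 ± 0.16 in mice with no lymph node array (exact p = 0.52). The dimmer probe set differed by -0.43 at 12 weeks (exact p = 0.045, adjusted 0.13), and by -0.20 once those arrays were left out (exact p = 0.34, adjusted 0.68). At 2 weeks it differed by -0.14 (exact p = 0.55), and the sign turned to 0.02 with those arrays left out (exact p = 0.92).

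By its brighter probe set Smox was higher in every sham mouse at 2 weeks than in any untreated mouse, which describes these mice only. How many of all genes separated as fully was not counted, and 7.39% of all genes tested had an unadjusted limma p under 0.05 here. Untreated mice had 10.23, 10.69 and 10.94 as lowest, median and highest level, and sham mice at 2 weeks had 10.94, 11.16 and 11.49, the upper untreated and lower sham value differing only past the second decimal. The difference was 0.58 ± 0.18, with limma's adjusted p at 0.18 in a comparison where 64 genes, 0.518% of those tested, passed. The exact permutation test gave p = 0.0022, the smallest that 6 mice against 6 allow, and 0.013 after adjustment over 6 comparisons. In mice with no such array it was 0.48 ± 0.16, again with 5 of 5 sham mice above all 5 untreated mice (limma adjusted p = 0.12, exact p = 0.0079, adjusted 0.048), beside a background of 1.98%. The dimmer probe set gave 0.51 with overlapping groups (exact p = 0.063, adjusted 0.13), and 0.29 in mice with no lymph node array (exact p = 0.21, adjusted 0.64). Endothelial markers were lower in sham air at 2 weeks for 9 of 10 genes with a median difference of -0.23, and slow fibre markers for 9 of 9 with a median of -0.26, while the median over all genes was 0.01. In the same mice 3 endothelial markers passed, namely Cldn5 at -0.73 ± 0.15, Kdr at -0.56 ± 0.13 and Tek at -0.29 ± 0.07 (limma adjusted p = 0.0031, 0.016 and 0.010). Their part in the Smox difference was not tested. From 2 to 12 weeks of sham air Smox differed by -0.20 ± 0.18 (exact p = 0.19), or by -0.16 ± 0.16 with those arrays left out (exact p = 0.32).

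The 2 cessation groups differed in Smox more clearly in the dimmer probe set than in the brighter one. For 1446509_at the FA mice had 8.48, 8.72 and 9.38 as lowest, median and highest level and the RA mice had 7.43, 7.86 and 8.16, so all 6 RA mice lay below all 6 FA mice. RA minus FA was -1.0 ± 0.22, with an exact permutation p of 0.0022, the smallest possible, and 0.013 after adjustment over 6 comparisons. Exact tests were adjusted within each probe set and each set of mice, not across them. In the fit of every probe set limma's adjusted p was 0.12, in a comparison where 5 of 22594 probe sets (0.0221%) passed. Over 17 processing alternatives limma's adjusted p ran from 0.039 to 0.29. Among mice with no lymph node genes, 3 RA mice at 7.43, 7.97 and 8.16 lay below 5 FA mice, and the difference was -0.92 ± 0.24 (limma adjusted p = 0.29, exact p = 0.036, the smallest possible, adjusted 0.21). For 1424268_at RA minus FA was -0.42 ± 0.18, with 5 of 6 RA mice below the lowest FA mouse (limma adjusted p = 0.96, exact p = 0.013, adjusted 0.039), beside a background of 0.0243%. With the lymph node arrays left out it was -0.49 ± 0.19 with 2 of 3 below (limma adjusted p = 0.51, exact p = 0.11). Lymphocyte markers were higher in RA than in FA for 11 of 11 genes with a median of 1.34, and macrophage markers were lower for 9 of 9 with a median of -0.35 once the lymph node arrays were left out. Their part in the Smox difference was not tested.

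Against the 24-week groups that Smox was chosen on, the cessation groups are described only. Cessation FA minus sham air at 24 weeks was -0.10 ± 0.18 (-0.03 ± 0.16 in mice with no lymph node array), and cessation RA minus the same sham mice was -0.52 ± 0.18, or -0.53 ± 0.19 without the lymph node arrays. Smoke at 24 weeks minus FA was -0.93 ± 0.18 (-0.65 ± 0.19 without those arrays), and all 6 smoke mice lay below all 6 FA mice. Smoke minus RA was -0.51 ± 0.18, and with the lymph node arrays left out it was -0.16 ± 0.21, so that the SE exceeds the difference. In the dimmer probe set it was 0.05 ± 0.22 and 0.48 ± 0.27. These comparisons share the same smoke and sham mice. Cessation FA minus smoke at 12 weeks, which uses neither group, was 0.27 ± 0.17 for Smox (limma adjusted p = 0.93, exact p = 0.099), or 0.20 ± 0.16 with the lymph node arrays left out (exact p = 0.23). The dimmer probe set gave 0.26 and 0.02 in the same order (exact p = 0.18 and 0.94).

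Sat1, the acetyltransferase of the same breakdown route, was high where lymph node genes were high. It has 1 probe set, 1420502_at, which ran from 10.30 to 12.16. In smoke at 24 weeks the lowest, median and highest levels were 10.63, 10.85 and 12.16, and in sham air at 24 weeks 10.56, 10.73 and 11.12, with 2 smoke mice above every sham mouse. Both of those mice carried lymph node genes. The difference was 0.35 ± 0.17 (limma adjusted p = 0.19), and in mice with no lymph node array it was 0.05 ± 0.09 (adjusted p = 0.78). The 3 smoke mice that were left had 10.63, 10.77 and 10.86. The smallest spread of any group was that of smoke at 2 weeks, with 6 mice between 10.54 and 10.65 and none of them with lymph node genes. Sat1 did not pass in any of the 14 comparisons in either fit.

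The 2 arrays of mouse G8 show the same contrast within 1 animal. On the array with lymph node genes Sat1 read 11.07 against 10.55 on the other, Srm 9.44 against 8.58, and Smox 10.57 against 11.08. The dimmer Smox probe set read 7.70 against 9.29, the widest gap among the 14 probe sets, and 1426764_at of Oaz2 read 8.31 against 9.61. Among the 11 other mice with lymph node genes, Sat1 and Srm lay above the median of the remaining mice of their own group in 11 of 11. Oaz2 (1426763_at) lay below it in 10, the dimmer Smox probe set and Azin1 (1450714_at) each in 9, and the brighter Smox probe set in 6 of 11. These counts describe the mice and were not tested.

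**Figure D2:**
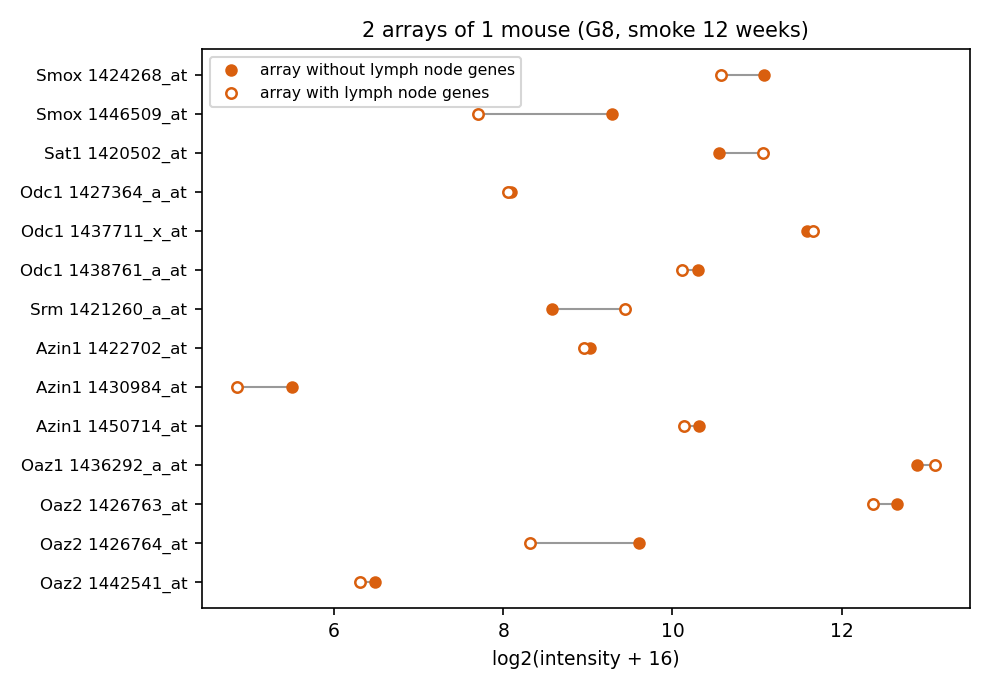
Log2 level (intensity plus 16) of the 14 probe sets of the measured genes on the 2 arrays of mouse G8, filled for the array without and open for the array with lymph node genes. Smox, at 11.08 and 10.57 in its brighter probe set, reads lower on the array with lymph node genes, and Sat1 and Srm read higher.

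**Figure D3:**
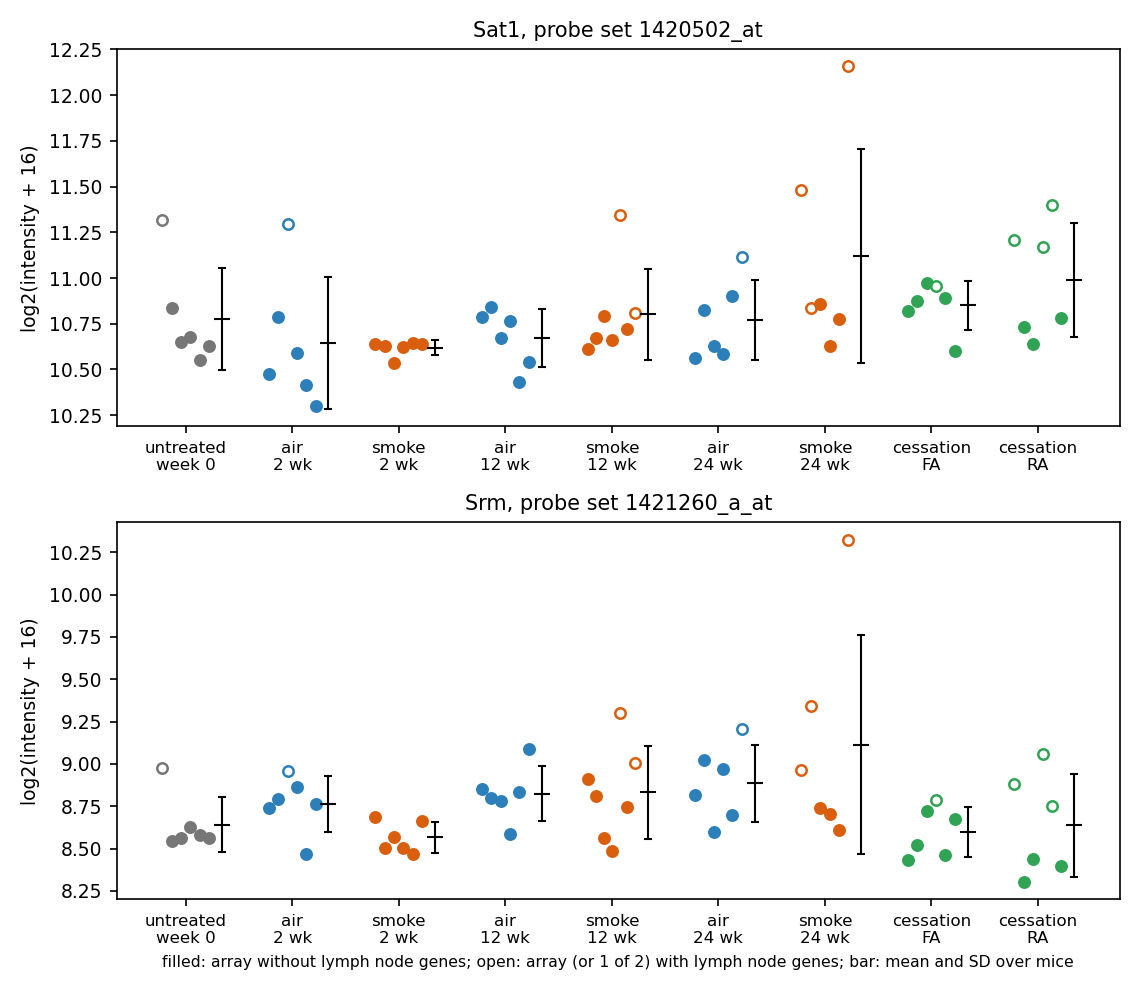
Log2 level (intensity plus 16) of Sat1 and Srm in each of 55 mice by group, with mean and SD as black bars, and open symbols for mice with an array that carried lymph node genes. The highest value of each gene, 12.16 for Sat1 and 10.33 for Srm, belongs to the same mouse of smoke at 24 weeks, shown open.

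Srm, which adds the aminopropyl group that turns putrescine into spermidine, fell in cessation RA against sham air at 24 weeks when the lymph node arrays were left out. The 3 RA mice had 8.30, 8.40 and 8.44, and the 5 sham mice had 8.60, 8.70, 8.82, 8.97 and 9.02, so the groups did not overlap. The difference was -0.44 ± 0.10 (limma adjusted p = 0.0058), where 490 of 12248 genes (4%) passed. The exact permutation p was 0.036, the smallest that 3 mice against 5 allow. Any groups of this size that do not overlap give this value. The exact test was run for this called gene alone and was not adjusted, so it is no further support. Leaving out each mouse in turn kept the difference between -0.50 and -0.39, and without RA replicate 2, the mouse at 8.30, the adjusted p was 0.059. With all mice the RA levels ran from 8.30 over a median of 8.59 to 9.06, and the difference was -0.25 ± 0.16 (adjusted p = 0.51, in a comparison where 1.76% of genes passed). In this same set of mice macrophage markers were lower in RA for 9 of 9 genes with a median of -0.32, adipocyte markers for 7 of 9 with a median of -1.11, and the median over all genes was -0.03. Their part in the Srm difference was not tested. Cessation FA against the same sham mice gave -0.28 ± 0.16 with all mice (adjusted p = 0.79) and -0.26 ± 0.08 in mice with no lymph node array (adjusted p = 0.19).

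Srm in smoke at 24 weeks depended on the lymph node arrays. The 6 smoke mice had a lowest level of 8.61, a median of 8.85 and a highest of 10.33, and the FA mice had 8.43, 8.60 and 8.79. Smoke minus FA was 0.51 ± 0.16 (limma adjusted p = 0.059, where 3.55% of genes passed), and 0.12 ± 0.10 in the 3 smoke and 5 FA mice without lymph node genes (adjusted p = 0.52). Against RA the difference was 0.48 ± 0.16 with all mice (adjusted p = 0.12, background 2.34%). In mice with no lymph node genes the 3 smoke mice, at 8.61, 8.70 and 8.74, all lay above the 3 RA mice, with a difference of 0.30 ± 0.11 (adjusted p = 0.11, background 3.3%). Against sham air at 24 weeks Srm differed by 0.23 ± 0.16 with all mice and by -0.14 ± 0.10 without these arrays, and neither passed.

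Odc1, the rate-limiting enzyme of synthesis, has 3 probe sets that did not move alike. The brightest, 1437711_x_at, carries a suffix that marks sequence shared with other transcripts, so its values are uncertain. It had a median level of 11.07 and a highest of 11.40 in sham air at 24 weeks, and 11.51 and 11.65 at 12 weeks, a difference of -0.38 ± 0.11 (limma adjusted p = 0.31, background 0.0324%). Smoke minus sham air at 24 weeks was 0.11 ± 0.11 in this probe set, -0.13 ± 0.10 in 1438761_a_at and -0.45 ± 0.16 in 1427364_a_at, the dimmest, and none passed (adjusted p from 0.11 to 0.54 in the fit of every probe set). With those arrays left out 3 smoke mice of 1427364_a_at all read 7.37 to 7.39, below the 5 sham mice at 7.69 to 8.27, with a difference of -0.54 ± 0.19 (adjusted p = 0.11, background 0.834% of 22554 probe sets).

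Odc1 was lower in cessation FA than in smoke at 12 weeks by the means of all 3 probe sets, and the difference passed in 1 of them. For 1438761_a_at the 5 FA mice without lymph node genes had 9.76, 9.83, 9.89, 9.94 and 10.04, and the 6 smoke mice ran from 10.08 over a median of 10.23 to 10.33, with no overlap. The difference was -0.33 ± 0.07 (limma adjusted p = 0.015 in the fit of every probe set, where 336 of 22554, or 1.49%, passed). Leaving out each mouse kept it between -0.36 and -0.29, and the adjusted p was 0.065 without FA replicate 6, the mouse at 9.76. With all mice it was -0.18 ± 0.09 (adjusted p = 0.84, background 0.257%). The brightest probe set gave -0.36 ± 0.10 without the lymph node arrays (adjusted p = 0.064, background 1.99%) and -0.26 ± 0.11 with all mice (adjusted p = 0.56, background 0.34%). The dimmest, 1427364_a_at, gave -0.46 ± 0.16 (adjusted p = 0.14 in the fit of every probe set) and -0.36 ± 0.15 (adjusted p = 0.66). The FA mice were 12 weeks further into the protocol than the smoke mice, so time and cessation cannot be told apart here.

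By the brightest probe set of each gene, the regulators of ornithine decarboxylase varied little between groups. Azin1, the antizyme inhibitor, ran from 9.85 to 10.92 in its brightest probe set, 1450714_at. Among mice with no lymph node genes 5 sham mice at 2 weeks, from 10.39 to 10.51, lay above 5 untreated mice, from 10.13 to 10.25, with a difference of 0.26 ± 0.09 (limma adjusted p = 0.16, background 1.98%). The sham mouse that was left out, with lymph node genes, had 10.11, and with it the difference was 0.20 ± 0.10 (adjusted p = 0.70). The antizyme Oaz1 ran from 12.71 to 13.10 over all mice. In smoke at 24 weeks the 3 mice without lymph node genes had 12.98, 12.99 and 13.02, above 5 sham mice that ran from 12.83 to 12.94, with a difference of 0.10 ± 0.05 (adjusted p = 0.22, background 0.4%). Oaz2 (1426763_at) in the same mice had 12.66, 12.70 and 12.70 against 12.46 to 12.64, a difference of 0.13 ± 0.05 (adjusted p = 0.15). How many of all genes separated as fully in these mice was not counted. With all mice the differences were 0.07 ± 0.04 for Oaz1 (adjusted p = 0.29) and -0.0033 for Oaz2 (adjusted p = 0.98). Dimmer probe sets past the filter did not all follow. Azin1 1422702_at ran from 8.46 to 10.00 and Oaz2 1426764_at from 8.00 to 9.69. Their differences at 24 weeks were 0.24 and -0.27, and that of Oaz2 1442541_at was 0.06. Cessation FA minus smoke at 12 weeks was -0.22 in 1422702_at, with limma's adjusted p as low as 0.031 under a processing alternative.

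**Figure D4:**
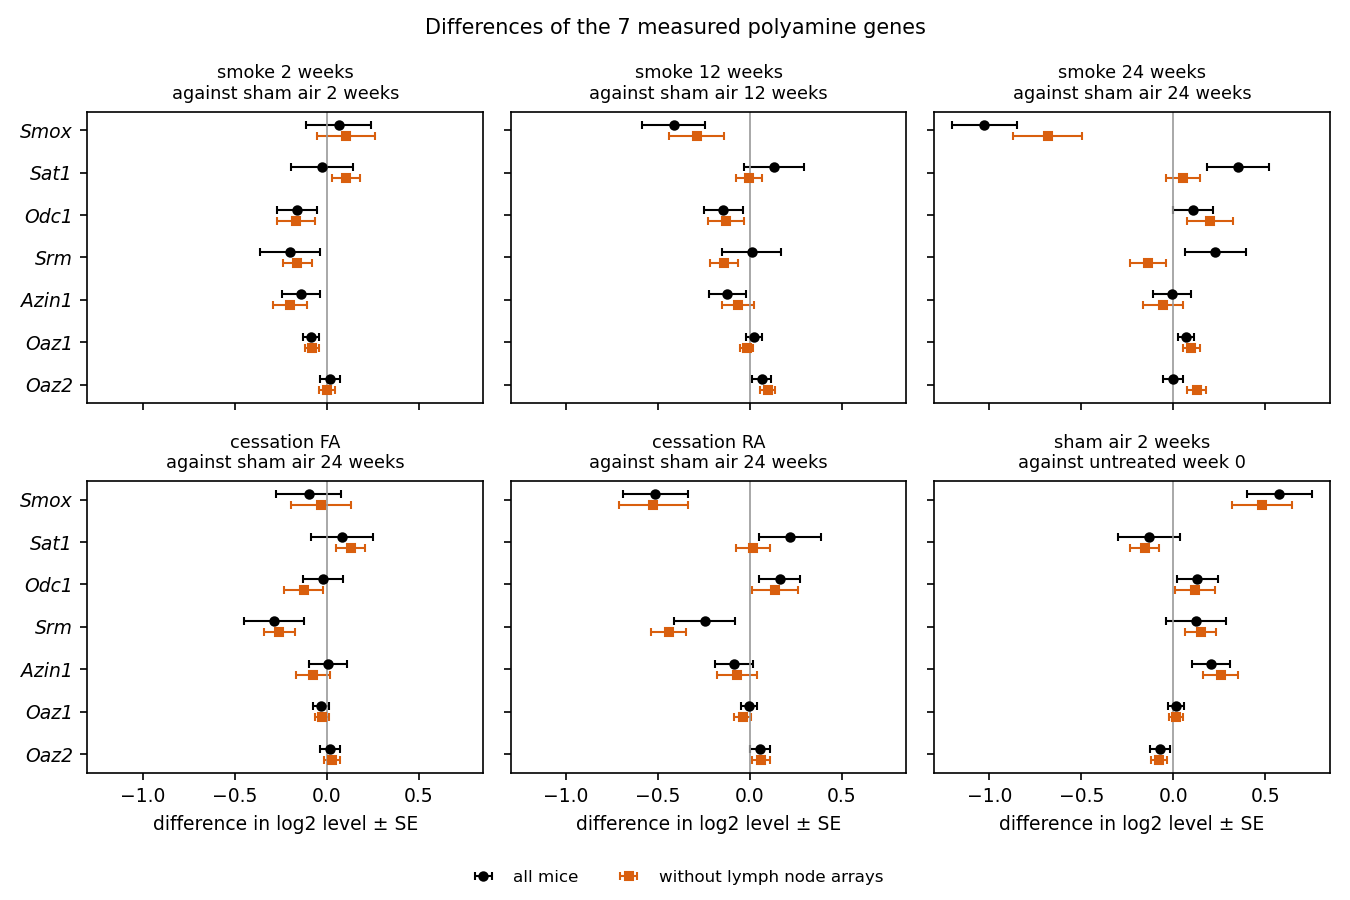
Difference in log2 level with its SE for the 7 measured genes in 6 comparisons, from the fit of all mice (black circles) and without the lymph node arrays (orange squares). Smox lies at -1.03 and -0.68 for smoke against sham air at 24 weeks, and Srm moves from -0.25 to -0.44 in cessation RA against sham air when these arrays are left out.

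Smox was not tested against the 24-week groups, and no other test of a member passed in any of the 14 comparisons when all mice were used. That is 0 of 90 tests by limma, of which 11 (12.2%) had an unadjusted p under 0.05, beside 10.6% of the tests of all genes over the 14 comparisons. Smoke against sham air at 2 weeks had 0 members of 7 called and 0% of all genes, at 12 weeks 0 of 7 against 0.0081%, and at 24 weeks 0 of 6 against 0.47%. The other comparisons with all mice gave 0 called against backgrounds of 0.081% (cessation FA against sham air), 1.76% (RA against sham air), 3.55% (smoke at 24 weeks against FA), 2.34% (smoke at 24 weeks against RA), 0.0243% (RA against FA), 0.34% (FA against smoke at 12 weeks), 0.518% (sham air at 2 weeks against untreated mice), 0.0081% (sham air at 12 against 2 weeks) and 0.0324% (at 24 against 12 weeks). The difference between the smoke effect at 24 weeks and that at 2 weeks passed for 0 of the 6 members tested, against 0.0324% of genes, and that between 24 and 12 weeks for 0 of 6, against 0%. With the lymph node arrays left out Srm in cessation RA against sham air was the 1 call among 90 (1.11%, beside 1.08% of the tests of all genes), and 22 (24.4%) had an unadjusted p under 0.05, beside 14.2%. There the background was 0% of genes for smoke against sham air at 2 weeks, 0.00816% at 12 weeks and 0.4% at 24 weeks. It was 0.253% for FA and 4% for RA against sham air, 1.9% for smoke at 24 weeks against FA, 3.3% against RA, 0.0327% for RA against FA and 1.99% for FA against smoke at 12 weeks. It was 1.98% for sham air at 2 weeks against untreated mice, 0.939% for sham air at 12 against 2 weeks and 0.0898% at 24 against 12 weeks. For the smoke effect at 24 weeks it was 0.147% against that at 2 weeks and 0.0245% against that at 12 weeks. In the fit of every probe set, where no tested member probe set passed with all mice, the background included 0.00443% of probe sets for smoke against sham air at 2 weeks, 0.00885% at 12 weeks, 1.31% for RA against sham air, 3.8% for smoke at 24 weeks against FA, 1.83% against RA, 0.00885% for sham air at 12 against 2 weeks and 0.0266% at 24 against 12 weeks. Leaving out the lymph node arrays in that fit gave, among others, 0.00887% for smoke against sham air at 2 weeks, 2.74% for RA against sham air, 1.91% for smoke at 24 weeks against FA and 3.54% against RA. The 6 members tested at 24 weeks had a median difference of 0.09 between smoke and sham air with all mice and 0.07 without these arrays, against -0.03 and -0.01 over all genes. For Smox the smoke effect at 24 weeks minus that at 2 weeks was -1.09 ± 0.25, or -0.79 without the lymph node arrays, given as a description.

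Wider polyamine genes gave few calls. Of the genes measured, 9 of 15 listed supply arginine and ornithine, 16 of 20 belong to the methionine cycle and its salvage, 4 of 4 to the hypusine modification of eIF5A that uses spermidine, 9 of 15 to transport and 7 of 11 are other enzymes and regulators. With all mice none passed in any of the 14 comparisons by limma, while 20, 29, 6, 21 and 5 tests respectively had an unadjusted p under 0.05. Together these were 81 of 630 tests, or 12.9%, beside 10.6% over all genes. For smoke against sham air at 24 weeks the medians were -0.11 for arginine and ornithine supply, -0.15 for the methionine cycle with 2 of 16 genes above 0, 0.03 for hypusine, -0.01 for transport and -0.12 for other enzymes, beside -0.03 over all genes. Without the lymph node arrays the medians of these lists were 0.03, -0.07, 0.10, -0.04 and -0.14.

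Without the lymph node arrays 10 of 630 tests in these lists passed (1.59%), near the 1.08% of tests of all genes, and 6 of the 10 were in comparisons with cessation RA. Against sham air at 24 weeks, where 4% of genes passed, Prodh, a proline dehydrogenase, fell by 0.74 ± 0.21 (limma adjusted p = 0.039). Slc7a2, a cationic amino acid transporter that carries arginine and ornithine, fell by 0.33 ± 0.09 (adjusted p = 0.030), and Slc3a2, the heavy chain of amino acid exchangers, fell by 0.32 ± 0.09 (adjusted p = 0.029). Nqo1, a quinone reductase known to bind and stabilise ornithine decarboxylase, rose by 0.35 ± 0.10 (adjusted p = 0.034). Slc7a2 was also higher in smoke at 24 weeks than in the same RA mice, where 3.3% of genes passed, by 0.38 ± 0.10 (adjusted p = 0.032), as was Eif5a2, a target of hypusine modification, by 0.57 ± 0.16 (adjusted p = 0.047). Those 3 RA mice are shared by both comparisons.

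The other 4 were between sham or untreated groups or between cessation FA and smoke at 12 weeks. Slc7a2 rose by 0.31 ± 0.08 from untreated mice to sham air at 2 weeks (limma adjusted p = 0.024, background 1.98%). From 2 to 12 weeks of sham air, where 0.939% of genes passed, Gamt, which makes creatine with a methyl group from S-adenosylmethionine, fell by 0.81 ± 0.18 (adjusted p = 0.017). Mtap, which salvages the methylthioadenosine left over by spermidine and spermine synthesis, fell by 0.22 ± 0.05 in the same comparison (adjusted p = 0.017). Mtap rose by 0.19 ± 0.05 from smoke at 12 weeks to cessation FA (adjusted p = 0.021, background 1.99%).

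Genes tied to Smox or to atrophy in muscle were read beside it. Cdkn1a, which encodes the cell cycle inhibitor p21, fell by 0.88 ± 0.20 from untreated mice to sham air at 2 weeks (limma adjusted p = 0.015), and Fbxo32, the muscle ubiquitin ligase atrogin-1, fell by 1.05 ± 0.22 (adjusted p = 0.0072). Without the lymph node arrays these falls were 0.99 ± 0.19 (adjusted p = 0.0023) and 0.94 ± 0.21 (adjusted p = 0.0090). The backgrounds were 0.518% of genes with all mice and 1.98% without those arrays. Both genes belong to a list of 8 for atrophy and p21, whose other genes are not given for this comparison. The falls therefore do not describe the list. Smox means in the same comparison were 10.63 in untreated and 11.21 in sham mice. After 24 weeks of smoke against sham air Cdkn1a differed by -0.43 ± 0.20 (adjusted p = 0.17), Fbxo32 by -0.30 ± 0.22 (adjusted p = 0.36), Trim63, the muscle ubiquitin ligase MuRF1, by -0.27 ± 0.15 (adjusted p = 0.24) and Myog, the myogenic factor myogenin, by 0.08 ± 0.27 (adjusted p = 0.87). With the lymph node arrays left out these were -0.23 for Cdkn1a, -0.23 for Fbxo32, 0.06 for Trim63, whose sign turned, and 0.44 for Myog, and none passed. Myog fell in cessation RA against sham air by 1.15 ± 0.27 (adjusted p = 0.012, background 1.76%). Without the lymph node arrays it fell by 0.99 ± 0.25 (adjusted p = 0.018, background 4%). In smoke at 24 weeks against RA Myog was higher by 1.23 ± 0.27 (adjusted p = 0.0051) and Cdkn1a differed by -0.82 ± 0.20 (adjusted p = 0.013). In mice with no lymph node array these differences were 1.43 ± 0.28 (adjusted p = 0.0024) and -0.97 ± 0.25 (adjusted p = 0.022). The backgrounds against RA were 2.34% with all mice and 3.3% without those arrays.

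The genes whose levels ran most like Smox over the 44 mice were found among 10801 genes and are described with no test. Phka1, the muscle subunit of phosphorylase kinase in glycogen breakdown, had r = 0.81 over these mice and 0.71 for deviations from group means. Its means ran from 12.77 ± 0.04 in sham air at 2 weeks to 12.51 ± 0.06 in cessation RA, a narrower range than that of Smox. Fut10 had r = 0.77, Lsp1, a leukocyte protein, 0.74, Pgk1, a glycolytic kinase, 0.72, and Hlf, a clock-controlled transcription factor, 0.68. For deviations from group means these were 0.56, 0.59, 0.71 and 0.45. Over all 55 mice r was 0.87 for Phka1, 0.83 for Fut10, 0.77 for Pgk1 and 0.74 for Hlf, but -0.09 for Lsp1. At the other end stood Bag3, a co-chaperone of muscle, at -0.69, Dapk2, a calmodulin-regulated kinase, at -0.69 and Eri1, an RNA exonuclease, at -0.66. Their deviations from group means gave -0.47, -0.41 and -0.56. Over all 55 mice r was -0.78 for Eri1, 0.18 for Bag3 and -0.05 for Dapk2. The mice share treatment groups, so these values carry the group means with them.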

How the data were processed

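The table deposited by the authors holds an intensity on a linear scale for 45037 probe sets on 56 arrays, from -20 to 15890. The background correction, summarisation and normalization behind these values are not given in the sources used here, and no read depth exists for arrays, so the number of arrays limits the precision. RNA was amplified to cDNA, biotin-labelled and hybridised, per the labels' protocols.

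Values were floored at -15, 16 was added and log2 was taken, with no further scaling. Probe sets were named from the platform annotation, with symbols updated through the Entrez number in RefSeq's gene table (34741 matched). Of all probe sets, 34945 had 1 symbol, 932 had several and 9160 had none, and those with several or none were left out. The probe set of highest mean stood for a gene, and a gene was tested where its mean log2 level reached 5.71, which is percentile 40 over the whole table.

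Groups came from the labels. The 9 groups entered a single limma model (R 4.3.3, limma 3.58.1) that gave 14 comparisons. Its degrees of freedom were 46, or 48.2 with moderation. Every adjusted p is limma's with Benjamini-Hochberg adjustment unless an exact or permutation test (scipy 1.17.1, two-sided) is named. Replicates are separate mice per the labels. Limma's p sets a difference against the spread between mice, pooled over the 9 groups and moderated over all genes. The exact p rests on rearranging the mice of the groups compared and cannot fall below a floor set by their numbers. The script was tested on simulated data.

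The members and all gene lists were chosen with earlier results of these data known. Named genes were all members, genes of the wider polyamine lists past the threshold, 3 at most in each list, the 5 genes most like and the 3 least like Smox by Pearson's r (probe sets of shared sequence left out), and Cdkn1a, Trim63, Fbxo32 and Myog. The endothelial markers Cldn5, Kdr and Tek were named after their values were seen. Alternatives covered the pseudocount, the filter, the probe set of a gene, normalization, moderation, array weights, the samples in the fit, G8, the lymph node arrays, identifier and title numbers, the threshold and each mouse left out. The fit of every probe set without the lymph node arrays, and leaving out each mouse there, were added after the data were seen. Promoters were the RefSeq entries of GRCm38.p6.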

Additional observations from a re-analysis of the deposited data

Results flagged for a closer look

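A mouse stood far from the rest of its group, by Dixon's ratio of gap to range, in 6 of the 72 gene and group combinations checked, and chance gives about 1 in 20. In 4 of the 6 the array carried lymph node genes. Sat1 was 11.34 in replicate 5 of smoke at 12 weeks against 10.81 in the next mouse, and 11.31 in untreated replicate 1 against 10.84, both the highest of their group and both with lymph node genes. Srm was highest in the same untreated mouse, at 8.97 against 8.63. Azin1 was lowest in replicate 3 of sham air at 2 weeks, at 10.11 against 10.39, again an array with lymph node genes. The remaining arrays had no lymph node genes. Sat1 was 10.54 in replicate 3 of smoke at 2 weeks against 10.62 in the nearest mouse, in the group with the smallest spread of Sat1. Oaz2 was 12.64 in replicate 4 of sham air at 12 weeks against 12.52.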

How the results depend on the processing

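For smoke against sham air at 24 weeks, the difference that Smox was chosen on ran from -1.10 to -0.68 under 18 processing alternatives. With a mouse left out it ran from -1.13 to -0.83. Every smoke mouse lay below every sham mouse, so leaving out a mouse could not turn the sign. These ranges describe the chosen difference and are no support for it. Smox at 24 weeks against sham air was -0.69 with array weights and -0.68 without the lymph node arrays, whether or not every probe set was tested. Against FA it was -0.61 with array weights, and against RA -0.16 without the lymph node arrays. The smoke effect on Smox at 24 weeks minus that at 12 weeks was -0.21 with array weights. Smox in sham air at 2 weeks minus untreated mice was 0.47 and passed with array weights (adjusted p = 0.025).

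The count of members called, 0 with all mice, became 1 for Srm in smoke at 24 weeks against FA with quantile normalization, without arrays whose identifier in the labels lies outside the main run of numbers, with the number in the sample title as a covariate and at an adjusted p under 0.1. Leaving out 1 mouse gave counts from 0 to 1 there (1 without smoke replicate 3, 4 or 5) and from 0 to 1 against RA (1 without smoke replicate 4 or 5). Against RA the count was also 1 without arrays outside the main run. Array weights gave 1 for cessation RA against sham air (Srm), 1 for FA against smoke at 12 weeks (Odc1), 2 for sham air at 2 weeks against untreated mice (Smox and Azin1), 1 for sham air at 24 against 12 weeks (Odc1) and 1 for the smoke effect at 24 against 2 weeks (Oaz1). Leaving out the lymph node arrays gave 1 for RA against sham air, with every probe set too, where FA against smoke at 12 weeks also gave 1. The causes were not tested. Of the Smox differences and member counts over all alternatives, 868 stayed within the spread between mice (counts within 1.5 times) and on their side of the threshold, 25 moved and 1 became a call. With all mice no tested member was called in the main fit, so there was no call there that could change sign. Calls under an alternative had the sign of the main fit. No Smox difference larger than the spread between mice changed sign. Smaller ones did: Smox in smoke against sham air at 2 weeks kept its sign in 28 of 30 alternatives (-0.04 to 0.14), in FA against sham air at 24 weeks in 29 of 30, in sham air at 24 against 12 weeks in 28 of 30, and the dimmer probe set in smoke at 24 weeks against RA in 24 of 29 (-0.14 to 0.48), in smoke against sham air at 2 weeks in 26 of 29 and in the smoke effect at 24 against 12 weeks in 41 of 42. The fit of every probe set without the lymph node arrays was chosen after seeing the data.

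Genes called over the whole table in smoke against sham air at 24 weeks were 58, and ran from 0 with only the groups compared to 811 at an adjusted p under 0.1. Against FA 438 became 6 to 1624, against RA 289 became 4 to 799, in RA against sham air 217 became up to 906, in FA against smoke at 12 weeks 42 became 15 to 441, and in sham air at 2 weeks against untreated mice 64 became 35 to 664. The other comparisons had 0 to 10 calls and at most 739 under an alternative. No paired analysis was possible because the replicate numbers only name the mice in accession order. The dimmest Azin1 probe set did not pass the filter.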
